A study of Mus musculus with 12 samples.

Results

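Sox13, Cd163l1 and 5830411N06Rik are 3 genes best known from gamma-delta T cells, and they were followed here in natural killer T (NKT) cells, which carry an alpha-beta T cell receptor that reads lipids bound to CD1d. They were picked by gene symbol from the 23284 genes of each deposited table because all 3 were higher in the liver cKO libraries and not in the thymus. Their differences in both tissues are therefore a description with no test, and the tests below are on other genes only. RNA of sorted NKT cells was sequenced in 12 libraries of C57BL/6 mice, 3 in each of 4 groups. The cKO groups (liver and thymus) held NKT cells of CD4- CD8- double-negative (DN) origin from E8III-Cre transgenic mice with floxed Rag2. The YFP+ groups (liver and thymus) held NKT cells of double-positive (DP) origin from E8III-Cre transgenic mice with a Rosa26 loxP-STOP-loxP reporter. E8III-Cre acts at the DP stage of thymocyte development, so cKO mice lose Rag2, and with it further receptor gene rearrangement, from that stage on. Both kinds of mice carry the Cre, the sort took live CD45R- CD4- CD8- CD1d dimer+ TCRb+ cells, and ages are not given in the labels. The origin of the cells and the kind of mouse they came from cannot be told apart.

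T cell progenitors in the thymus choose between the alpha-beta and the gamma-delta lineage. Sox13 is a transcription factor of the SoxD group, which binds DNA through a high-mobility-group (HMG) box. In mice it marks early gamma-delta progenitors, is needed for some interleukin-17 (IL-17) producing gamma-delta T cells, and can oppose the Wnt effector TCF1, the product of Tcf7. Cd163l1 (Scart1 in RefSeq synonyms) and 5830411N06Rik (Scart2) encode membrane proteins with scavenger receptor cysteine-rich (SRCR) domains that are found on mouse gamma-delta T cells, including those that make IL-17.

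Cd163l1 and 5830411N06Rik lie on the same strand of mouse chromosome 7 with 16138 bases and 0 annotated genes between them, and Sox13 lies on chromosome 1 (GENCODE M21, build GRCm38; the deposited values were made on mm9). No annotated gene overlaps any of the 3. The promoter windows of RefSeq (GRCm38.p6), 250 bases before to 50 bases after a start, are shown because the 3 genes share a pattern while their promoters differ in kind. Capitals mark the matches to the motifs searched.

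Sox13, chr1:133424163-133424462, minus strand: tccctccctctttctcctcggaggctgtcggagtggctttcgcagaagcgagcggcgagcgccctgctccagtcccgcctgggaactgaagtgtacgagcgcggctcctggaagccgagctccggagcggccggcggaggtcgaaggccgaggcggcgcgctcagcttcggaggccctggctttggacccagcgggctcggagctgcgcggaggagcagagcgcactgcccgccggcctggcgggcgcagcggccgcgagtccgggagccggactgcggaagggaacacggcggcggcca

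Cd163l1, chr7:140218017-140218316, plus strand: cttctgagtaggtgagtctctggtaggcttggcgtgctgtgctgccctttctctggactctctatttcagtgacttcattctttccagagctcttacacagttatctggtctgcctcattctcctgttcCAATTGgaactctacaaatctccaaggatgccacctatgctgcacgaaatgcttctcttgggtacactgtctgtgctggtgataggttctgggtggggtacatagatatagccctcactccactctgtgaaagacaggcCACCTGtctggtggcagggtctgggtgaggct

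5830411N06Rik, chr7:140247051-140247350, plus strand, the first of 3 windows listed for this gene: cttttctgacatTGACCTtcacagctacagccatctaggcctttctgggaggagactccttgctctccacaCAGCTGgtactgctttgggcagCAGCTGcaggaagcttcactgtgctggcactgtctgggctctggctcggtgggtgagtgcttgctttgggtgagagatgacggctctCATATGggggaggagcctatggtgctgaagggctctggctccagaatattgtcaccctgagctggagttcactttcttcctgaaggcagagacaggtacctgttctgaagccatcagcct

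The Sox13 window was rich in G and C (73.3%) and held 40 CpG pairs, more than 96.2% of the 27025 promoters, whose median was 52.7% and 7 pairs. The windows of Cd163l1 (50.7% G and C) and 5830411N06Rik (55% for the window shown) each held 2 CpG pairs, more than 14.6% of promoters. Motifs were searched on both strands by their letters. The SOX motif AACAAT (in 10.9% of all promoters), the TCF/LEF motif CTTTGA (16.2%), the RUNX motif TGTGGT (16.9%) and the T-box motif AGGTGT (13.9%) had no match in the 3 windows. The ROR half-site AGGTCA (16% of promoters) had 1 match, in 5830411N06Rik. The E-box CANNTG (72.1% of promoters), whose letters can overlap those of a T-box, had 2 matches in Cd163l1, 3 in 5830411N06Rik and 0 in Sox13. No single motif of these was present in all 3 windows.

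Since Cd163l1 and 5830411N06Rik are paralogs, reads could be shared between them. Their coding sequences (2973 and 3336 bases, GENCODE M21) were 70.3% identical over 2938 aligned bases, and the longest identical stretch had 23 bases. Of 2924 windows of 50 bases along Cd163l1, 0 came within 2 mismatches of 5830411N06Rik, 48 came within 5, and the median was 14. The closest windows are shown because they are where the 2 coding sequences are most alike at this length, with capitals at the 4 mismatches. Untranslated bases and other window lengths were not compared.

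Cd163l1, coding bases 1429 to 1478: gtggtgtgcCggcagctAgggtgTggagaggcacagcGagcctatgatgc

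5830411N06Rik, coding bases 1792 to 1841: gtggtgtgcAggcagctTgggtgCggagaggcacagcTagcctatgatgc

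Values are FPKM, fragments divided by transcript length and by the number mapped in the library, deposited as 1 table per tissue. The tables come from single-end (liver) and paired-end (thymus) reads by their file names and were normalized separately, so levels are compared within a tissue only. Read depth is unknown. The column headers of the liver table and the sample titles agree on the groups, while the description fields of the liver samples name the other mouse. If the descriptions were right, every liver direction below would be turned round. Rag2, the targeted gene, was at 0 in the liver cKO libraries and at 0.985 to 1.36 FPKM in the liver YFP+ libraries. Rag1 and Dntt, DP thymocyte genes that are not targeted, were lower in liver cKO too. Rag1 was at 0.146 to 0.223 FPKM in liver cKO and 1.33 to 1.96 FPKM in liver YFP+. Dntt was at 0.385 to 0.768 FPKM in liver cKO and 15.7 to 16.4 FPKM in liver YFP+. The Rag2 values alone therefore do not settle the liver labels. In the thymus Rag2 was at 0 to 0.015 FPKM in cKO and at 0 in YFP+, so it could not check the labels there either. Cd3e, a T cell receptor subunit, was at 1018 to 1048 FPKM in liver cKO and 1022 to 1069 FPKM in liver YFP+ libraries, and at 292 to 295 FPKM in thymus cKO and 348 to 367 FPKM in thymus YFP+ libraries. Libraries of 1 group correlated at 0.988 to 0.995 across genes. Thymus cKO replicate 1 stood apart in erythroid markers, whose sum was 108 FPKM there, 0.201 and 14.3 FPKM in the other thymus cKO libraries, and 0.21 to 0.922 FPKM in thymus YFP+.

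Whether the 3 libraries of a group are 3 animals is not stated in the labels. The p-values below rest on the variation among those libraries, which may be technical.

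Sox13 was the gene of the 3 with the greatest difference between origins. It was at 7.29, 7.53 and 9.56 FPKM in the liver cKO libraries, against 0.497, 0.867 and 1.02 FPKM in the liver YFP+ libraries. Every liver cKO library was above every liver YFP+ library, and the lowest cKO value was 7.17 times the highest YFP+ value. Such a separation was seen in 14.7% of the 9591 genes tested in the liver, and since the 3 genes were chosen for it, nothing is read from theirs. The means were 8.12 ± 1.25 FPKM in liver cKO and 0.793 ± 0.267 FPKM in liver YFP+ (SD, n = 3 each), a 10.2-fold ratio. Among the genes of a library Sox13 ranked above 80.6 to 83.3% in liver cKO and above 54.1 to 58.5% in liver YFP+.

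In the thymus Sox13 was low in both groups. It was at 0.535, 1.46 and 0.97 FPKM in the thymus cKO libraries, against 1.29, 1.29 and 1.06 FPKM in the thymus YFP+ libraries. The groups overlapped, with the lowest and the highest library both of cKO, while 5.34% of the 9097 genes tested in the thymus had all cKO libraries above and 37.6% all below the YFP+ libraries. The means were 0.987 ± 0.461 FPKM in cKO and 1.21 ± 0.133 FPKM in YFP+ (SD, n = 3 each).

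Cd163l1, the first of the SRCR receptors, was at 7.38, 10.5 and 7.37 FPKM in the liver cKO libraries, against 1.47, 2 and 2.45 FPKM in the liver YFP+ libraries. The liver groups did not overlap, and the lowest cKO value was 3.01 times the highest YFP+ value. The means were 8.4 ± 1.78 FPKM in liver cKO and 1.98 ± 0.489 FPKM in liver YFP+ (SD, n = 3 each), a 4.25-fold ratio. In the thymus Cd163l1 was at 5.91, 3.63 and 5.39 FPKM in cKO, against 3.59, 5.08 and 6.62 FPKM in YFP+ libraries. The thymus YFP+ libraries held both the lowest and the highest value, and the means differed little beside the spread, at 4.98 ± 1.2 FPKM in cKO and 5.1 ± 1.52 FPKM in YFP+ (SD, n = 3 each).

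5830411N06Rik, its neighbour and paralog, was at 4.93, 4.84 and 5.19 FPKM in the liver cKO libraries, against 1.1, 1.45 and 1.85 FPKM in the liver YFP+ libraries. The liver groups did not overlap here either, and the lowest cKO value was 2.62 times the highest YFP+ value. The means were 4.99 ± 0.184 FPKM in liver cKO and 1.47 ± 0.372 FPKM in liver YFP+ (SD, n = 3 each), a 3.4-fold ratio. The liver cKO libraries lay closest together for this gene, with a coefficient of variation of 3.69%, beside 15.4% for Sox13 and 21.1% for Cd163l1. In the thymus 5830411N06Rik was at 5.05, 7.42 and 6.81 FPKM in cKO, against 5.46, 4.67 and 5.61 FPKM in YFP+ libraries. The thymus groups overlapped through cKO replicate 1, the library with the erythroid signal. The thymus means were 6.43 ± 1.23 FPKM in cKO and 5.25 ± 0.508 FPKM in YFP+ (SD, n = 3 each).

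**Figure D1:**
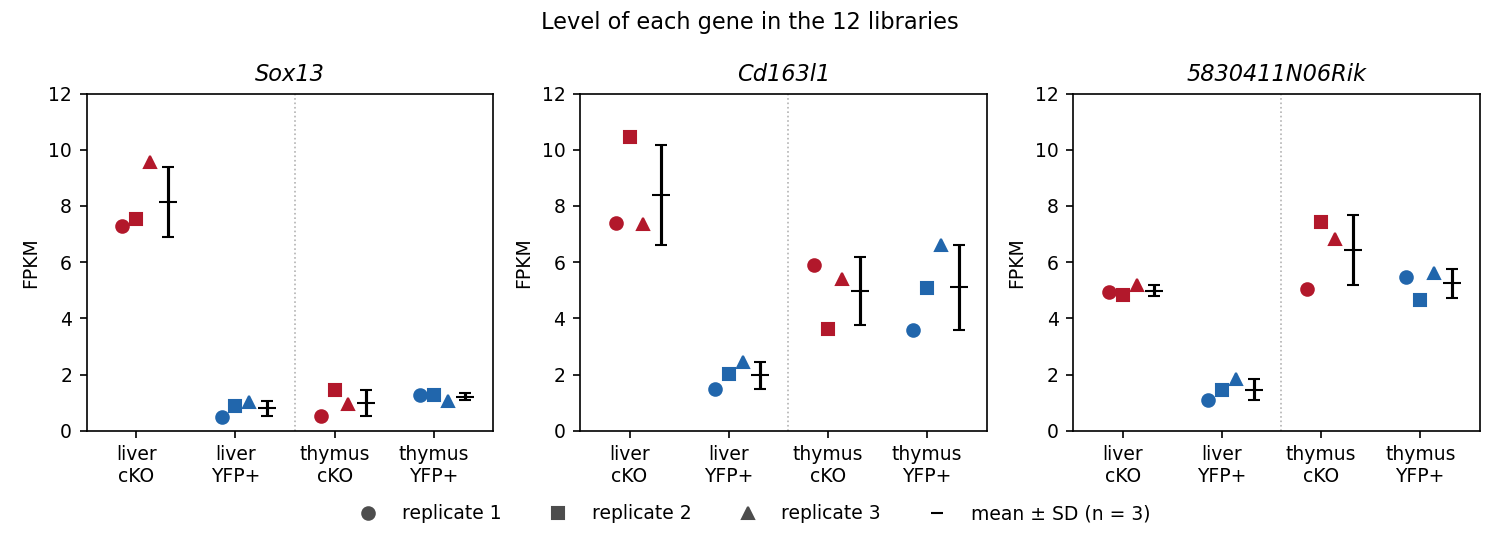
FPKM of Sox13, Cd163l1 and 5830411N06Rik (1 panel each) in every library, by tissue and origin, with the mean and SD of each group of 3. The 3 liver cKO libraries lie above the 3 liver YFP+ libraries in each panel, and the thymus groups overlap in each.

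Genes of the gamma-delta T cell receptor itself were not analysed here. Markers of other cell types also differed between the liver groups, and their part in the pattern of the 3 genes was not tested. The summed level of 19 macrophage and Kupffer cell markers was 33.3 to 40.3 FPKM in liver cKO and 82.6 to 113 FPKM in liver YFP+ libraries. Of these markers 7 were tested and 4 called lower by limma (adjusted p under 0.05), beside 19.7% of all liver genes. The 4 were C1qa, C1qb, Lyz1 and Lyz2, and Lyz2 had means of 12.2 FPKM in liver cKO and 46.7 FPKM in liver YFP+. The Kupffer cell genes Clec4f, at 0 to 0.056 FPKM in liver cKO and 0 in liver YFP+, and Vsig4, at 0 in liver cKO and 0 to 0.049 FPKM in liver YFP+, were near 0. The summed level of 10 B cell markers was 14.5 to 19.7 FPKM in liver cKO and 28.7 to 30.9 FPKM in liver YFP+. Of the B cell markers 4 were tested, and Cd79a, Cd79b and Igj were called lower in liver cKO (limma, adjusted p under 0.05). Fcer2a, the highest of them in liver cKO (mean 9.19 FPKM), was called higher there. The summed level of 8 erythroid markers was 9.82 to 15 FPKM in liver cKO and 641 to 742 FPKM in liver YFP+. That of 11 DP thymocyte markers was 25.6 to 26.4 FPKM in liver cKO and 86.1 to 95.6 FPKM in liver YFP+. The sum of 15 dendritic cell and granulocyte markers was 184 to 201 FPKM in liver cKO and 231 to 261 FPKM in liver YFP+. Of these 7 were tested (limma, adjusted p under 0.05), beside 7.49% higher and 19.7% lower of all liver genes. Siglech was called higher in liver cKO, and S100a8, S100a9, Ngp and Camp were called lower. Sums of 14 NK and innate lymphoid cell markers overlapped, at 1202 to 1258 FPKM in liver cKO and 1163 to 1323 FPKM in liver YFP+. Of these Ncr1 and Klre1 were called higher and Klrb1c and Gzma lower in liver cKO (limma, adjusted p under 0.05). The sum of 14 hepatocyte markers was 12.6 to 16.7 FPKM in liver cKO and 37.6 to 43.2 FPKM in liver YFP+, most of it Trf, while Alb was at no more than 0.059 FPKM in liver cKO and at 0 in liver YFP+. The sum of 17 endothelial and stromal markers was 1.83 to 3 FPKM in liver cKO and 4.01 to 4.98 FPKM in liver YFP+, with the endothelial gene Cdh5 at 0 in both. Pecam1, the 1 marker of these tested, was called lower in liver cKO (limma, adjusted p under 0.05). Its means were 1.25 FPKM in liver cKO and 3.22 FPKM in liver YFP+. More genes were listed at 0 in the liver YFP+ libraries (8800 to 8869) than in the liver cKO libraries (6702 to 6841).

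Within each group the order of the 3 levels differed. FPKM are per length, so levels can be set side by side within a library. In the liver cKO group Cd163l1 (8.4 FPKM) and Sox13 (8.12 FPKM) overlapped in their ranges, and 5830411N06Rik (4.99 FPKM) lay below both in every library. In the liver YFP+ group the order was Cd163l1 (1.98 FPKM), 5830411N06Rik (1.47 FPKM) and Sox13 (0.793 FPKM) in every library, with neighbouring ranges that overlap between the receptors. In both thymus groups Sox13 was lowest in every library, and the 2 receptors did not differ beyond their spread.

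The ratio of 2 of the genes in 1 library does not depend on how that library was scaled. The ratio of Sox13 to 5830411N06Rik was 1.48, 1.56 and 1.84 in the liver cKO libraries and 0.451, 0.6 and 0.55 in the liver YFP+ libraries. Sox13 was thus above the receptor in every liver cKO library and below it in every liver YFP+ library. In the thymus the same ratio was 0.106, 0.196 and 0.142 in cKO and 0.236, 0.276 and 0.189 in YFP+, with an overlap. The ratio of Sox13 to Cd163l1 was 0.987, 0.721 and 1.3 in liver cKO and 0.337, 0.433 and 0.415 in liver YFP+. The ratio of Cd163l1 to 5830411N06Rik was 1.5, 2.16 and 1.42 in liver cKO and 1.34, 1.39 and 1.33 in liver YFP+. The 3 liver cKO libraries lay above the 3 liver YFP+ libraries in this ratio, farthest in cKO replicate 2, which has the highest Cd163l1. In the thymus their ratio was 1.17, 0.489 and 0.792 in cKO and 0.658, 1.09 and 1.18 in YFP+. It crossed 1 within both thymus groups.

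**Figure D2:**
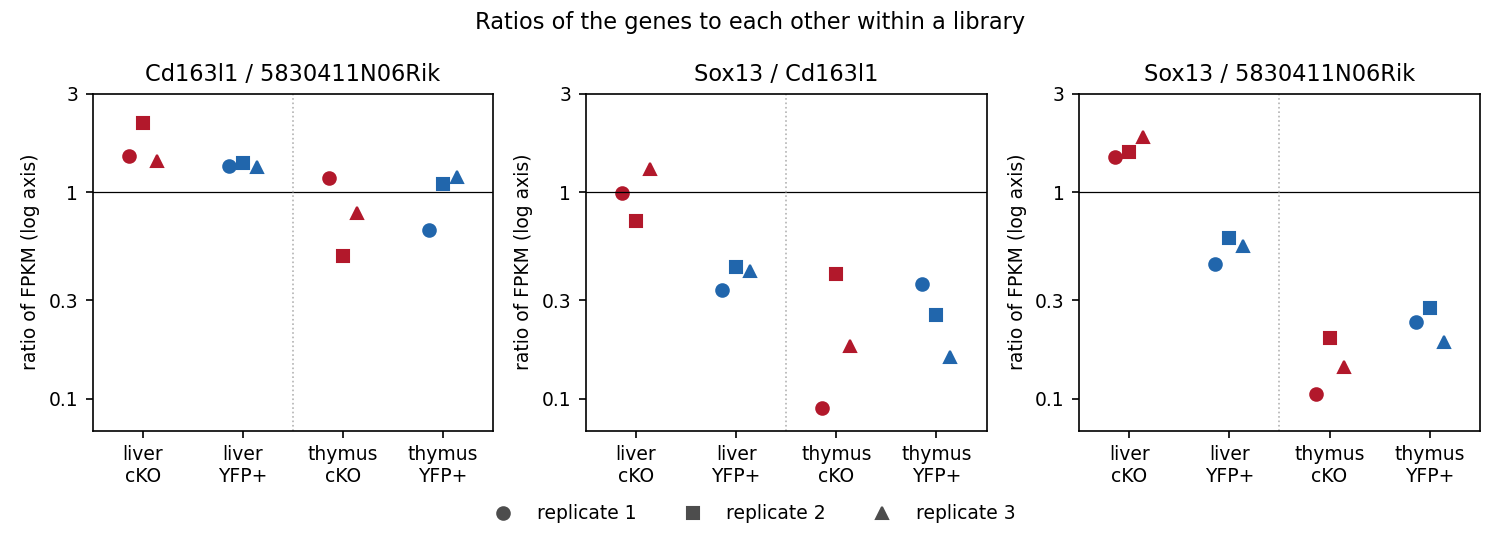
Ratios of FPKM of each pair of the genes within a library, on a log axis, by tissue and origin, with 1 point per library. The ratio of Sox13 to 5830411N06Rik is above 1 in the 3 liver cKO libraries and below 1 in the other 9 libraries.

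The 3 genes were also set against the T cell receptor subunit Cd3e, whose liver groups overlapped. Cd3e varied little across the liver libraries (1018 to 1069 FPKM). Division by it could therefore not remove the liver separation for which the genes were chosen, and the values are a description. Per 1000 FPKM of Cd3e there were 7.15 to 9.12 of Sox13 in liver cKO, against 0.465 to 0.973 in liver YFP+. For Cd163l1 there were 7.04 to 10.2 in liver cKO, against 1.38 to 2.35 in liver YFP+, and for 5830411N06Rik 4.72 to 4.96 in liver cKO, against 1.03 to 1.77 in liver YFP+. In the thymus the groups overlapped for Sox13 (1.83 to 4.99 in cKO and 2.89 to 3.71 in YFP+) and Cd163l1 (12.4 to 20.2 in cKO and 9.95 to 18 in YFP+). For 5830411N06Rik they did not, at 17.3 to 25.4 in thymus cKO and 13.4 to 15.3 in thymus YFP+, where Cd3e itself was lower in cKO. Division by a lower Cd3e raises the thymus cKO value of every gene. The share of all genes that separate on this scale was not taken, so nothing is read from this separation. These are bulk samples, in which fewer cells that express a gene and less RNA per cell cannot be told apart.

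To place the 3 genes among all others, differences of mean log2(FPKM + 1), cKO minus YFP+, were taken over the genes that averaged at least 1 FPKM in a tissue, 9591 in the liver and 9097 in the thymus, and all 3 genes were among them in both tissues. This scale understates the change of low genes. The median gene differed by -0.11 in the liver and -0.16 in the thymus, and differences are given relative to it. In the liver they were 2.46 for Sox13, 1.77 for Cd163l1 and 1.40 for 5830411N06Rik. Counted from the highest, these were ranks 1, 11 and 30 of 9591. In the thymus they were -0.02 for Sox13, 0.15 for Cd163l1 and 0.40 for 5830411N06Rik, at ranks 4829, 2063 and 570 of 9097. Without thymus cKO replicate 1 the thymus differences, not relative to the median gene, were -0.01, -0.13 and 0.38, against -0.18, -0.02 and 0.24 with it.

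**Figure D3:**
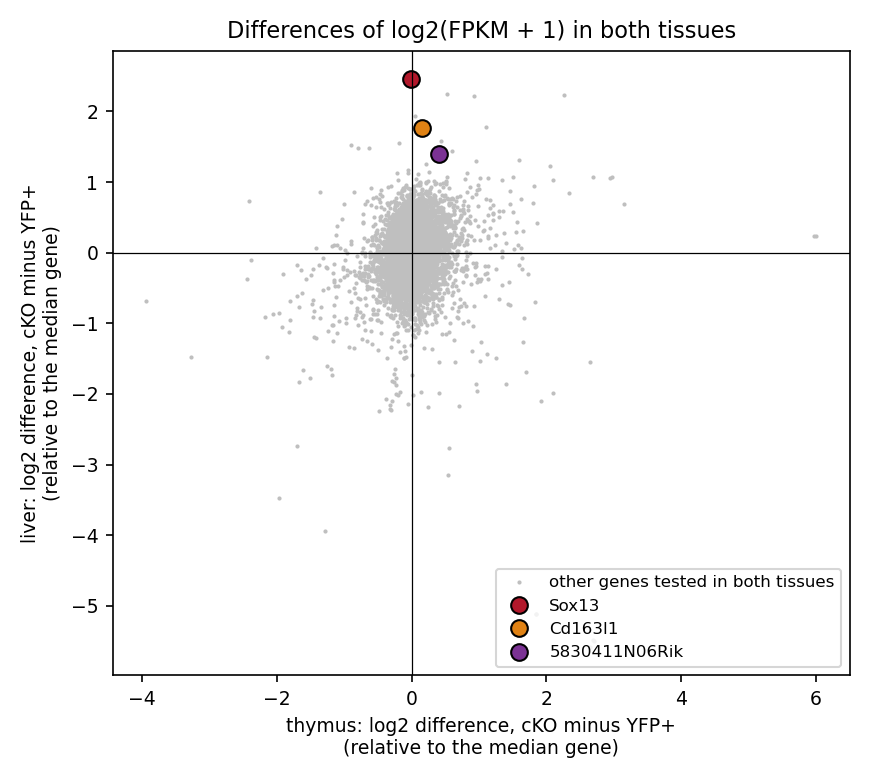
Difference of mean log2(FPKM + 1), cKO minus YFP+, relative to the median gene, in the thymus (x axis) and the liver (y axis), with 1 point per gene tested in both tissues. Sox13 (2.46), Cd163l1 (1.77) and 5830411N06Rik (1.40) lie near the top of the liver axis and at 0.40 or less on the thymus axis.

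Of the genes tested in the liver, 8.85% (849 of 9591) had all cKO libraries above the YFP+ libraries while their thymus groups overlapped, as the 3 genes did. The count for the 3 genes was fixed by how they were chosen. A liver ratio of means at least that of 5830411N06Rik left 17 genes, the 3 included. Among the other 14 were 4933438K21Rik, which had the highest ratio (2.1 FPKM in liver cKO and 0.111 FPKM in liver YFP+), the natural cytotoxicity receptor gene Ncr1 (2.19 FPKM in liver cKO and 0.318 FPKM in liver YFP+) and Nkain3 (26 FPKM in liver cKO and 7.22 FPKM in liver YFP+). In the thymus 4933438K21Rik, Mir1966, Mir677 and the 3 genes reached a mean of 1 FPKM in a group, and the other 11 of the 17 did not.

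Other genes were ordered by how alike their values were to those of the 3 genes across the libraries. Likeness was Pearson's r of log2(FPKM + 1) over the 12 libraries after the mean of each gene in each tissue was subtracted, over 10688 genes, so that it reads the spread within tissues and is a description of libraries that share their groups. Between the genes themselves r was 0.952 for Sox13 and 5830411N06Rik, 0.871 for Sox13 and Cd163l1, and 0.857 for the 2 receptors. The spread within tissues includes the liver difference between origins for which the 3 genes were chosen. A high r among them was therefore fixed by that choice, and nothing is read from it. The same holds for other genes, as a clear liver difference with little change in the thymus is enough for a high r. The genes below are thus a list of such genes, and their r is not evidence of a link with the 3 genes. The genes most like Sox13 were Stxbp6 (0.974), 9530036O11Rik (0.974), E230016K23Rik (0.973), Ooep (0.97) and Ptk6 (0.97). Those most like Cd163l1 were the cation channel gene Trpm6 (0.965), the chemokine receptor gene Ccr2 (0.955), Gtpbp2 (0.946), Mvp (0.944) and Pnpla7 (0.943). Those most like 5830411N06Rik were the myosin gene Myo1g (0.975), Gm9159 (0.972), Cntnap1 (0.969), Slc25a42 (0.968) and Zfp9 (0.965).

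The levels of these genes separate into kinds. Trpm6 was at 3.53 ± 0.666 FPKM in liver cKO and 1.58 ± 0.131 FPKM in liver YFP+, and at 4.92 ± 0.763 FPKM in thymus cKO and 5.55 ± 0.368 FPKM in thymus YFP+ (SD, n = 3 each). It was thus present in both tissues, as Cd163l1 was. Stxbp6 was at 8.21 ± 0.526 FPKM in liver cKO and 3.84 ± 0.39 FPKM in liver YFP+, but at 0.0783 ± 0.0367 FPKM in thymus cKO and 0.0573 ± 0.0486 FPKM in thymus YFP+ (SD, n = 3 each). Of the 10 genes most like all 3 at once (lowest r of 0.92 to 0.93), 9 were under 1 FPKM in every thymus library, and all 10 had a lower liver ratio than 5830411N06Rik. The exception in the thymus was Pnpla7, at 13.3 ± 0.319 FPKM in thymus cKO and 13.9 ± 0.457 FPKM in thymus YFP+, with 12.7 ± 0.475 FPKM in liver cKO and 6.51 ± 1.26 FPKM in liver YFP+ (SD, n = 3 each). Siglech, known as a plasmacytoid dendritic cell marker, was at 6.42 ± 0.112 FPKM in liver cKO and 2.83 ± 0.37 FPKM in liver YFP+ (SD, n = 3 each).

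**Figure D4:**
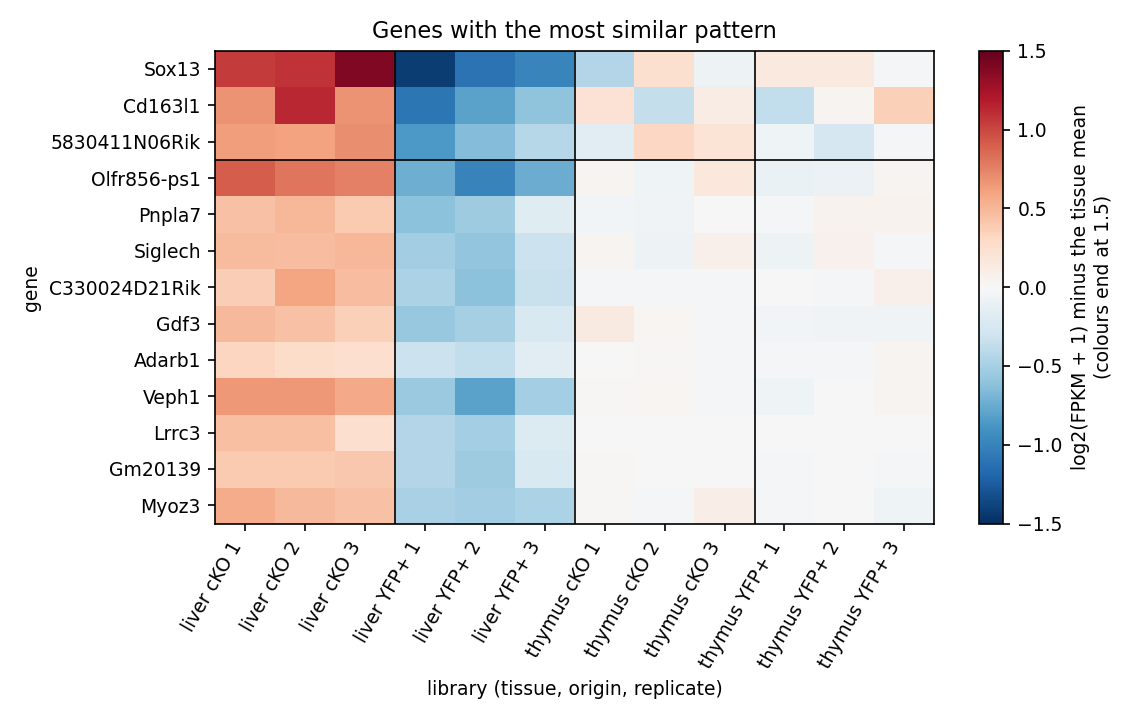
Heat map of log2(FPKM + 1) minus the mean of the tissue for Sox13, Cd163l1, 5830411N06Rik and the 10 genes most like all 3 (rows) in the 12 libraries (columns), with colours that end at 1.5. Liver cKO libraries are above and liver YFP+ libraries below their tissue mean in every row, and the thymus libraries are paler than the liver libraries in the rows of the 10 genes.

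Neighbouring genes on the chromosomes did not share the level. Around Cd163l1 and 5830411N06Rik, Sprn and the olfactory receptor genes Olfr522 to Olfr525 were at 0.4 FPKM or less in every liver library. Around Sox13, Plekha6, Golt1a, Kiss1, Ren1 and Etnk2 were at 0.148 FPKM or less in every liver library.

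Other members of the Sox family were low. Of 18 other Sox genes measured, 17 were under 0.5 FPKM in all 12 libraries, among them Sox5 (at most 0.139 FPKM) and Sox6 (at most 0.036 FPKM), the other SoxD genes. Sox4, an HMG-box factor that in mice promotes IL-17 producing gamma-delta T cells, ran the other way. It was at 0.159, 0.119 and 0.295 FPKM in liver cKO, against 1.85, 1.92 and 1.64 FPKM in liver YFP+ libraries, and at 0.264, 0.263 and 0.146 FPKM in thymus cKO, against 0.939, 1.26 and 1.4 FPKM in thymus YFP+ libraries. Its groups did not overlap in either tissue, as with 29.6% of tested liver genes and 37.6% of tested thymus genes that were lower in cKO, and Sox4 averaged under 1 FPKM and was not tested.

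For genes outside the 3, limma was run on the whole table of a tissue with p-values adjusted over all its genes. It tested each difference against 0, not against the median gene. Sizes on the log2 scale below are relative to the median gene unless stated otherwise, while each p-value belongs to the unshifted difference. Limma called 27.2% of liver genes (7.49% higher and 19.7% lower in cKO) and 15.7% of thymus genes (2.64% higher and 13.1% lower), and 15.1% for the difference between tissues. Counts over a list are read against these shares. Where a list has a count of 0 below, its count at an unadjusted p under 0.05 was 0 too. With libraries rescaled by median ratios the liver calls split into 1037 higher and 1036 lower, and the thymus calls into 453 higher and 359 lower, against 718 and 1889 in the liver and 240 and 1189 in the thymus as described, so the excess of lower calls depends on the scale.

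Of 17 measured HMG-box genes with a place in T cells, 8 were tested in each tissue. In the liver 0 were higher and 5 lower (Tcf7, Lef1, Tox, Hmgb1 and Hmgb2), with a list median of -0.24 relative to all genes. Of all liver genes 7.49% were called higher and 19.7% lower. In the thymus 1 was higher (Tcf7) and 4 lower (Lef1, Tox, Ssrp1 and Hmgb1), with a median of -0.16. Of all thymus genes 2.64% were called higher and 13.1% lower. With median ratios the list count was 0 higher and 4 lower in the liver, and 1 higher and 3 lower in the thymus. Lef1, which encodes a close relative of TCF1, was at 8.21, 8.45 and 13.2 FPKM in liver cKO, against 38.4, 38.9 and 43.3 FPKM in liver YFP+ libraries. It fell by 1.83 on the log2 scale relative to the median gene (limma, adjusted p = 0.000224; 8.54e-05 to 0.00335 over the alternatives). In the thymus Lef1 was at 6.59, 4.87 and 6.37 FPKM in cKO, against 21.5, 23.8 and 25.6 FPKM in YFP+ libraries, and it fell by 1.67 (limma, adjusted p = 0.000106). The difference between tissues was not past the threshold for Lef1 (limma, adjusted p = 0.789).

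Tcf7, the gene of TCF1, went in opposite directions. It was at 95.9, 91.8 and 93.2 FPKM in liver cKO, against 123, 125 and 120.4 FPKM in liver YFP+ libraries. Thymus levels of Tcf7 were 84.0, 87.9 and 90.5 FPKM in cKO, against 64.5, 68.9 and 68.5 FPKM in YFP+ libraries. The groups did not overlap in either tissue. Relative to the median gene Tcf7 fell by 0.28 on the log2 scale in the liver (limma, adjusted p = 0.00488; 0.00537 to 0.168 over the alternatives, the last with quantile normalization). It rose by 0.54 in the thymus (limma, adjusted p = 0.0119; 0.0523 without YFP+ replicate 1 and 0.0562 without cKO replicate 3, in a range of 0.00193 to 0.0562). The difference between tissues was -0.82 (limma, adjusted p = 0.000221). Not relative to the median gene, as tested, the differences were -0.39 in the liver, 0.37 in the thymus and -0.76 between tissues.

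Hmgb2, a chromatin protein abundant in dividing cells, was at 87.1 ± 1.98 FPKM in liver cKO and 162 ± 4.63 FPKM in liver YFP+ (SD, n = 3 each; limma, adjusted p = 0.000143). Its thymus levels were 37.7 ± 2.71 FPKM in cKO and 42.2 ± 4.42 FPKM in YFP+, and did not pass (limma, adjusted p = 0.256). Hmgb1 fell in both tissues, to 428 ± 6.94 FPKM in liver cKO against 655 ± 49.9 FPKM in liver YFP+ (limma, adjusted p = 0.00117). Thymus levels of Hmgb1 were 189 ± 4.52 FPKM in cKO against 259.5 ± 20.9 FPKM in YFP+ (SD, n = 3 each; limma, adjusted p = 0.00872). Tox, a factor of NKT and T cell development, fell in the thymus to 4.46 ± 0.829 FPKM in cKO against 9.42 ± 1.57 FPKM in YFP+ (limma, adjusted p = 0.00659). Its fall in the liver, to 16.3 ± 0.817 FPKM in cKO against 20.5 ± 0.4 FPKM in YFP+ (SD, n = 3 each; limma, adjusted p = 0.0294), was lost in 8 of 11 alternatives, with adjusted p up to 0.233, among them leaving out any single liver library but YFP+ replicate 1 (0.0522 to 0.104).

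Genes of the Wnt and TCF pathway were counted next. Of 41 genes, 18 were tested in the liver, with 1 higher (Myc) and 2 lower (Tcf7 and Lef1), beside 27.2% of all genes called there, and a median of 0.20 relative to all genes. In the thymus 20 were tested, with 1 higher (Tcf7) and 2 lower (Tle4 and Lef1), a share near the 15.7% of all genes called there, and a median of 0.04. Myc, a growth regulator and a known TCF target, rose to 21.5 ± 1.31 FPKM in liver cKO against 10.0 ± 1.39 FPKM in liver YFP+ (SD, n = 3 each; limma, adjusted p = 0.000793). Thymus Myc was at 9.76 ± 0.531 FPKM in cKO and 9.09 ± 1.25 FPKM in YFP+ (limma, adjusted p = 0.515). Tle4, a Groucho corepressor of TCF factors, was at 9.74 ± 0.897 FPKM in liver cKO and 9.23 ± 0.761 FPKM in liver YFP+ (limma, adjusted p = 0.688). Thymus Tle4 fell to 15.6 ± 1.44 FPKM in cKO against 27.1 ± 2.01 FPKM in YFP+ (SD, n = 3 each; limma, adjusted p = 0.00213).

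The list of the rest of the SRCR family holds 26 genes, of which 21 were measured and 4 reached the tested level in each tissue. In the liver 0 were higher and 0 lower (limma; 0 also at an unadjusted p under 0.05; median 0.16), and with quantile normalization 1 was higher. In the thymus Prss12 was higher and Cd6 lower (median -0.07). With 4 genes tested, beside 7.49% of all genes called higher in the liver, these counts say nothing of the family. Cd163, the scavenger receptor of macrophages for which Cd163l1 is named, was at 0.366 ± 0.0945 FPKM in liver cKO and 0.266 ± 0.0692 FPKM in liver YFP+, and at 0.00667 ± 0.00987 FPKM in thymus cKO and 0.02 ± 0.0223 FPKM in thymus YFP+ (SD, n = 3 each). Prss12, a secreted protease with SRCR domains, was at 5.25, 8.21 and 7.96 FPKM in thymus cKO, against 1.64, 2.23 and 1.75 FPKM in thymus YFP+ libraries. It rose there by 1.65 on the log2 scale (limma, adjusted p = 0.00109). In the liver Prss12 was at 1.66 ± 0.22 FPKM in cKO and 1.36 ± 0.575 FPKM in YFP+, and did not pass (limma, adjusted p = 0.491). Cd5 and Cd6 encode T cell surface receptors that carry SRCR domains too. Cd5 was at 46.5 ± 3.42 FPKM in liver cKO and 51.5 ± 2.15 FPKM in liver YFP+, and Cd6 at 41.9 ± 4.42 FPKM in liver cKO and 39.9 ± 4.5 FPKM in liver YFP+ (SD, n = 3 each). Neither passed there (limma, adjusted p = 0.231 for Cd5 and 0.684 for Cd6). In the thymus Cd6 fell to 23.7 ± 1.67 FPKM in cKO against 37.7 ± 5.23 FPKM in YFP+ (SD, n = 3 each; limma, adjusted p = 0.00829). Cd5 was at 22.7 ± 2.87 FPKM in thymus cKO and 27.7 ± 2.98 FPKM in thymus YFP+ (limma, adjusted p = 0.121).

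Genes of the IL-17 programme of gamma-delta T cells were called in both directions in the liver and lower in the thymus. Genes on this list, such as Zbtb16 and Ccr2, are not particular to gamma-delta T cells, and the libraries are of NKT cells. The counts therefore say nothing of gamma-delta T cells themselves. Of 37 measured genes, 27 were tested in the liver, with 3 higher (Ccr2, Podnl1 and Nr1d1) and 11 lower and a median of -0.20, beside 7.49% higher and 19.7% lower of all genes. In the thymus 26 were tested, with 0 higher (limma; 0 also at an unadjusted p under 0.05) and 16 lower and a median of -0.49, beside 2.64% higher and 13.1% lower of all genes. With median ratios the liver count was 4 higher and 4 lower, and the thymus count 0 and 14. The 11 lower calls in the liver became 3 without YFP+ replicate 2, 5 without cKO replicate 2, and 7 when cKO replicate 1, YFP+ replicate 3 or cKO replicate 3 was left out. The 3 higher calls became 1 without any of the cKO libraries. In the test of the difference between tissues 12 of 27 genes had a higher difference, cKO minus YFP+, in the liver than in the thymus and 2 a lower one, beside 9.14% higher and 5.91% lower of all genes.

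Ccr2, a homing receptor of IL-17 producing gamma-delta T cells and of monocytes, was at 24.3 ± 1.13 FPKM in liver cKO and 12.3 ± 0.623 FPKM in liver YFP+ (SD, n = 3 each). It rose by 1.04 on the log2 scale in the liver (limma, adjusted p = 0.000391). In the thymus Ccr2 was at 8.14 ± 1.08 FPKM in cKO and 8.75 ± 0.724 FPKM in YFP+ (limma, adjusted p = 0.536), and the difference between tissues was 0.97 (limma, adjusted p = 0.000795). Podnl1 was at 15.6, 13.2 and 13.6 FPKM in liver cKO, against 4.53, 10.4 and 9.12 FPKM in liver YFP+ libraries. Its rise of 0.92 (limma, adjusted p = 0.0425) was lost in 5 of 11 alternatives, with adjusted p up to 0.125, among them leaving out any of the cKO libraries (0.0916 to 0.125).

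Blk and Maf, 2 genes of the IL-17 programme, fell in the thymus, and in the liver Blk fell and Maf did not pass. Blk, a kinase of IL-17 producing gamma-delta T cells, fell to 6.2 ± 0.883 FPKM in liver cKO against 11.4 ± 0.831 FPKM in liver YFP+ (limma, adjusted p = 0.0034). In the thymus Blk fell to 2.31 ± 0.697 FPKM in cKO against 12 ± 2.96 FPKM in YFP+ (SD, n = 3 each; limma, adjusted p = 0.000583). Maf, a factor that in mice is also needed for this programme, was at 20.6 ± 0.934 FPKM in liver cKO and 19.2 ± 2.24 FPKM in liver YFP+ (limma, adjusted p = 0.535). In the thymus Maf fell to 4.8 ± 0.976 FPKM in cKO against 9.57 ± 0.69 FPKM in YFP+ (SD, n = 3 each; limma, adjusted p = 0.00519).

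Ahr, Zbtb16 and Rora were each called lower in the thymus. Ahr, the aryl hydrocarbon receptor, fell there to 1.11 ± 0.419 FPKM in cKO against 11.7 ± 0.892 FPKM in YFP+ (SD, n = 3 each; limma, adjusted p = 7.08e-05). Its liver call (0.793 ± 0.0597 FPKM in cKO and 1.52 ± 0.282 FPKM in YFP+; limma, adjusted p = 0.0336) was lost in 9 of 11 alternatives, among them leaving out any single liver library but YFP+ replicate 1 (adjusted p 0.0512 to 0.113). Zbtb16, which encodes PLZF, the factor of innate-like T cells, fell in the thymus to 3.76 ± 0.565 FPKM in cKO against 12.3 ± 1.26 FPKM in YFP+ (limma, adjusted p = 0.000238). In the liver Zbtb16 was at 9.86 ± 0.949 FPKM in cKO and 11.4 ± 2.31 FPKM in YFP+ (SD, n = 3 each; limma, adjusted p = 0.408). Rora, which encodes a nuclear receptor, fell in the thymus to 1.83 ± 0.419 FPKM in cKO against 6.03 ± 0.0971 FPKM in YFP+ (limma, adjusted p = 0.000429). Its liver call, with 1.86 ± 0.412 FPKM in cKO and 4.35 ± 1.83 FPKM in YFP+ (SD, n = 3 each; limma, adjusted p = 0.0464), was likewise lost in 9 of 11 alternatives, among them leaving out any single liver library but YFP+ replicate 1 (adjusted p 0.0889 to 0.15).

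Il23r, the receptor that maintains IL-17 production, was at 1.5 ± 0.893 FPKM in liver cKO and 1.95 ± 0.397 FPKM in liver YFP+ (limma, adjusted p = 0.424). In the thymus Il23r fell to 0.655 ± 0.098 FPKM in cKO against 3.86 ± 0.997 FPKM in YFP+ (SD, n = 3 each; limma, adjusted p = 0.000713). Il17a itself was listed at 0 in the 3 liver cKO libraries, against 0.27 to 0.397 FPKM in liver YFP+ libraries, and it was at 0 to 0.044 FPKM in thymus cKO and 0.039 to 0.251 FPKM in thymus YFP+ libraries. Ccr6, a chemokine receptor of these cells, was at 0.433 to 0.576 FPKM in liver cKO and 0.529 to 0.661 FPKM in liver YFP+ libraries. Neither gene reached the level needed for the test.

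Genes of the interferon-gamma (IFN-gamma) programme of gamma-delta T cells changed in both directions. This list too holds genes that are not particular to gamma-delta T cells, such as Ncr1 and Slamf6. Of 26 genes 25 were tested in the liver, with 5 higher (Il2rb, Klrk1, Ncr1, Ccl5 and Gzmb), 13 lower and a median of -0.18. After rescaling by median ratios, 5 liver calls were higher and 10 lower. Calls over every tested liver gene made up 7.49% (higher) and 19.7% (lower). In the thymus 23 were tested, with 5 higher (Ifng, Klrk1, Ccl5, Ly6c2 and Ly6c1), 8 lower and a median of -0.22. Rescaled in the same way, 7 were higher and 4 lower. Calls over every tested thymus gene made up 2.64% (higher) and 13.1% (lower). The 8 lower calls in the thymus became 14 without cKO replicate 1, 4 without YFP+ replicate 3 and 5 without YFP+ replicate 1 or 2. The 5 higher calls became 3 without cKO replicate 3 or any of the YFP+ libraries. Ncr1, which encodes NKp46, rose to 2.19 ± 0.607 FPKM in liver cKO against 0.318 ± 0.166 FPKM in liver YFP+ (SD, n = 3 each; limma, adjusted p = 0.00209). In the thymus Ncr1 was at 0.389 ± 0.107 FPKM in cKO and 0.337 ± 0.173 FPKM in YFP+ and was not tested.

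Ifng and Ccl5 show the 2 tissues apart. Ifng was at 34.0, 31.1 and 32.9 FPKM in liver cKO, against 59.6, 56.4 and 57.8 FPKM in liver YFP+ libraries, a fall of 0.70 on the log2 scale (limma, adjusted p = 0.000366). Thymus levels of Ifng were 41.0, 71.8 and 63.2 FPKM in cKO, against 18.7, 24.3 and 11.5 FPKM in YFP+ libraries, a rise of 1.82 (limma, adjusted p = 0.00824). The chemokine gene Ccl5 rose in both tissues, to 3634 ± 131 FPKM in liver cKO against 2194 ± 248 FPKM in liver YFP+ (limma, adjusted p = 0.00121). Thymus levels of Ccl5 were 1159 ± 309.8 FPKM in cKO against 253 ± 17 FPKM in YFP+ (SD, n = 3 each; limma, adjusted p = 0.000219). Slamf6, a SLAM family receptor that takes part in NKT cell development, fell in the liver to 0.586 ± 0.319 FPKM in cKO against 4.83 ± 0.932 FPKM in YFP+ (SD, n = 3 each; limma, adjusted p = 0.000493). It also fell in the thymus, to 0.0247 ± 0.0158 FPKM in cKO against 2.39 ± 1.17 FPKM in YFP+ (limma, adjusted p = 0.00242).

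A list of 31 genes was made for the signalling that takes part in the choice of the gamma-delta lineage. It also holds genes that are not particular to that lineage, such as Ptcra, Themis and Cd24a. In the liver 23 were tested, with 0 higher (limma; 0 also at an unadjusted p under 0.05), 11 lower and a median of -0.29. Of all liver genes 7.49% were called higher and 19.7% lower. The 11 were Id3, Nr4a1, Cd69, Txk, Relb, Bcl11b, Hes1, Ptcra, Themis, Cd28 and Cd24a. The count is therefore not read as a change of gamma-delta signalling. In the thymus 19 were tested, with 2 higher (Cd69 and Dtx1), 9 lower and a median of -0.11, beside 2.64% higher and 13.1% lower of all genes, and with median ratios 2 were higher and 4 lower. Markers of CD4+ CD8+ thymocytes were lower too: all 7 of the 11 listed that were tested fell in the liver (limma, adjusted p under 0.05), with a summed level of 25.6 to 26.4 FPKM in liver cKO and 86.1 to 95.6 FPKM in liver YFP+. In the thymus 3 were tested and all 3 fell, with sums of 7.04 to 8.93 FPKM in cKO and 18.1 to 23.0 FPKM in YFP+. Ptcra and Themis are on both lists, and the part of these cells in the counts was not tested. The 9 lower calls in the thymus became 3 without YFP+ replicate 3 and 4 without YFP+ replicate 2 or cKO replicate 3. The 2 higher calls became 3 without cKO replicate 1 and 1 without any other thymus library. Id3, a target of strong receptor signals, fell in both tissues, to 31.7 ± 1.41 FPKM in liver cKO against 76.3 ± 3.48 FPKM in liver YFP+ (limma, adjusted p = 7.04e-05). Thymus levels of Id3 were 6.62 ± 0.409 FPKM in cKO against 17.6 ± 2.75 FPKM in YFP+ (SD, n = 3 each; limma, adjusted p = 0.00047). Hes1, a Notch target, fell in the liver to 0.322 ± 0.365 FPKM in cKO against 5.01 ± 0.617 FPKM in YFP+ (limma, adjusted p = 0.000317). Cd24a, a marker of immature thymocytes, fell in the liver to 0.072 ± 0.0852 FPKM in cKO against 3.92 ± 0.761 FPKM in YFP+ (SD, n = 3 each; limma, adjusted p = 0.000129).

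Nr4a1, an early response gene of the receptor that encodes Nur77, differed between the thymus cKO libraries. It was at 2.27, 4.37 and 3.35 FPKM in liver cKO, against 14.3, 16.9 and 15.6 FPKM in liver YFP+ libraries, a fall of 1.86 (limma, adjusted p = 0.000317). Thymus levels of Nr4a1 were 1.38, 8.66 and 8.12 FPKM in cKO, against 1.65, 1.72 and 1.26 FPKM in YFP+ libraries. Thymus cKO replicate 1 lay among the YFP+ libraries, and Nr4a1 did not pass with it (limma, adjusted p = 0.101) and did without it (adjusted p = 5.91e-05, the lowest in a range up to 0.255). Podnl1 in the thymus was the other gene named here that passed without this library (0.00403) and not with it (0.0509). Egr2, another early response gene, fell in the thymus to 1 ± 0.145 FPKM in cKO against 2.72 ± 0.554 FPKM in YFP+ (SD, n = 3 each; limma, adjusted p = 0.00539). Dtx1, a Notch modulator, rose in the thymus to 32.2 ± 8.42 FPKM in cKO against 16.4 ± 0.824 FPKM in YFP+ (limma, adjusted p = 0.00998). Etv5, a factor of IL-17 producing gamma-delta thymocytes in mice, was at 2.04 ± 0.468 FPKM in liver cKO and 2.27 ± 0.231 FPKM in liver YFP+, and at 1.51 ± 0.32 FPKM in thymus cKO and 1.71 ± 0.384 FPKM in thymus YFP+ (SD, n = 3 each). It passed in neither tissue (limma, adjusted p = 0.61 in the liver and 0.592 in the thymus).

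**Figure D5:**
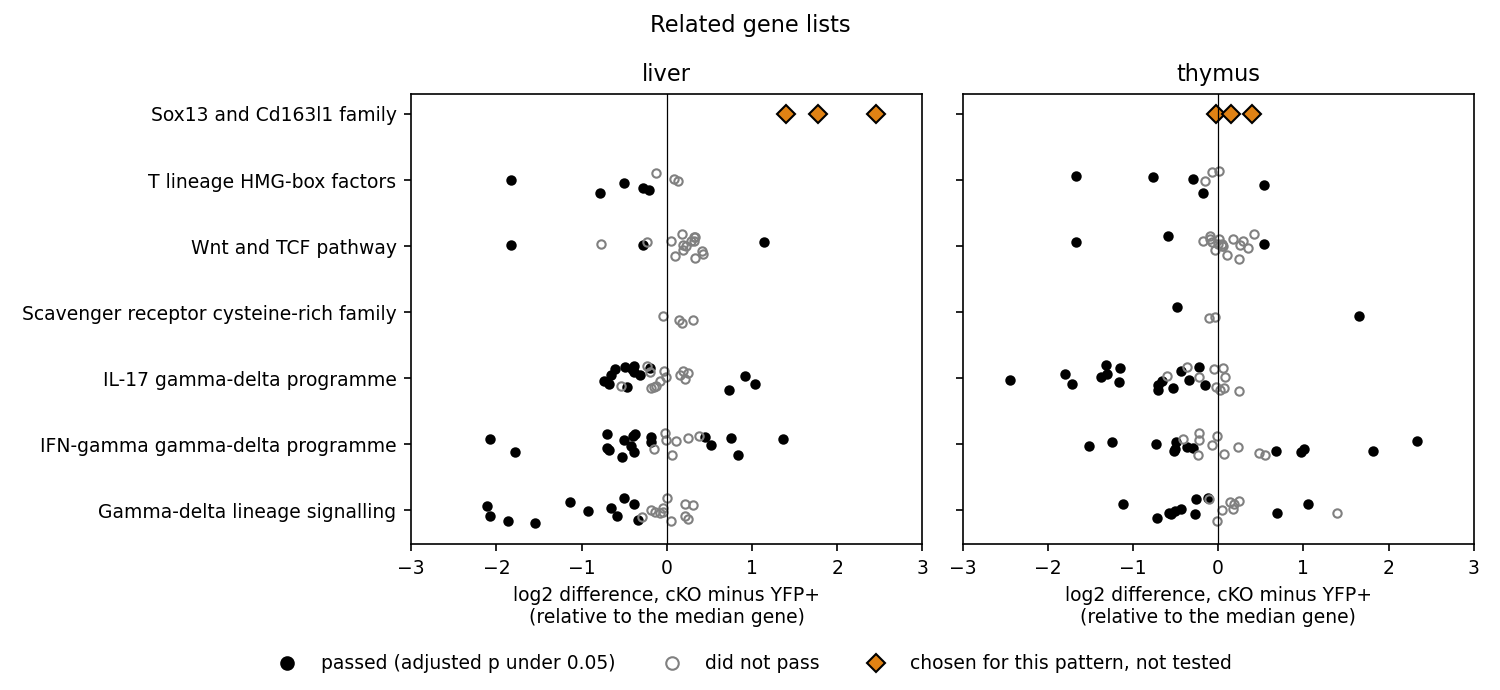
Difference of mean log2(FPKM + 1), cKO minus YFP+, relative to the median gene, for the tested genes of each list in the liver and the thymus. Filled points passed at an adjusted p under 0.05 and open points did not. The diamonds of Sox13, Cd163l1 and 5830411N06Rik (2.46, 1.77 and 1.40 in the liver) were not tested. They were chosen for a liver rise and lie to the right of every listed gene in the liver panel, where Ncr1 (1.37) is nearest.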

How the data were processed

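The values are FPKM that the authors deposited as 1 table per tissue, with 23284 genes and 6 libraries each. Per the submitters' processing notes they were made with TopHat2 (version 2.8.0 as given there) and Cufflinks 2.1.1 on mouse build mm9. CD4+ and CD8+ thymocytes were removed before the sort, per the labels' protocols, cDNA was made with a SMARTer Ultra Low Input kit, and libraries with a TruSeq or a ThruPLEX kit. Which library had which kit, the annotation and the use of strand are not given in the sources used here. FPKM divide fragments by the mapped total and transcript length, so abundant transcripts lower other values, and read depth is unknown. Summed FPKM ran from 450429 to 465304 in liver cKO and 509267 to 558042 in liver YFP+, and from 187828 to 194655 in thymus cKO and 198790 to 212688 in thymus YFP+, with no overlap in either tissue. Groups were taken from titles, which the column headers match.

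Here, log2(FPKM + 1) was tested with limma 3.58.1 (R 4.3.3, trended variance) over genes averaging at least 1 FPKM, for cKO against YFP+ in each tissue and for the difference between tissues (12 libraries), with Benjamini-Hochberg adjustment at 0.05 over all tested genes. The test was tested on simulated data. Descriptions used Python 3.11.15. The alternatives were a pseudocount of 0.1, no filter, median-ratio scaling, quantile normalization, the replicate number as a block, and each library left out in turn. The 3 genes and the gene lists were chosen with earlier results of these data known. Beside the 3 genes the text names up to 3 genes per list and tissue that passed without overlap of groups, by size of difference, a fixed set (Tcf7, Lef1, Sox4, Sox5, Cd5, Cd6, Cd163, Maf, Blk, Il23r, Il17a, Ccr6, Etv5 and Zbtb16) and the genes most alike in pattern. Of the genes this rule picks, 2 are not reported here. Rag2, Cd3e, Sox6, the markers, the chromosomal neighbours and the genes that share the liver pattern were named after their values were seen. Gene symbols, promoters and synonyms come from RefSeq, and coding sequences from GENCODE M21. Motifs were searched by exact letters.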

Additional observations from a re-analysis of the deposited data

Results flagged for a closer look

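Of the 28 genes named from the lists and tested for it, 19 differed between origins by unequal amounts in the 2 tissues, by the limma test of the difference itself (adjusted p under 0.05; values are the liver difference minus the thymus difference on the log2(FPKM + 1) scale, not relative to the median gene). Among all genes 15.1% passed this test. Many of the named genes were picked for the largest differences within a tissue, which favours such a difference. Sox13, Cd163l1 and 5830411N06Rik are left out of this test because they were chosen for such a difference.

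In the IL-17 programme the value was positive for Ahr (2.12), Podnl1 (1.58), Zbtb16 (1.30), Il23r (1.25), Blk (1.18), Ccr2 (1.03) and Maf (0.97). Ahr, Zbtb16, Il23r, Blk and Maf were called lower in thymus cKO than in thymus YFP+, and their liver differences were smaller. Ccr2 and Podnl1 were called higher in liver cKO than in liver YFP+. Il23r missed the threshold without the filter on low values (limma, adjusted p = 0.0552; 0.00748 to 0.0552 over the alternatives).

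Of the HMG-box and Wnt genes, Myc (0.93), Tle4 (0.83) and Tox (0.62) had positive values, and Tcf7 (-0.76) and Hmgb2 (-0.73) negative ones. Tcf7 was the gene among these whose groups separated in opposite directions in the 2 tissues. Tox was lost in several alternatives (limma, adjusted p from 0.0335 to 0.079), among them leaving out any of the liver cKO libraries (0.0526 to 0.0776), liver YFP+ replicate 1 or 2 (0.0579 and 0.067), thymus YFP+ replicate 1 or 3 (0.0624 and 0.079) or thymus cKO replicate 1 (0.058). In the SRCR family Cd6 (0.71) and Prss12 (-1.28) differed, and both passed in the thymus and not in the liver.

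In the IFN-gamma programme the value was negative for Ifng (-2.47) and Ccl5 (-1.43). In the lineage signalling list it was negative for Nr4a1 (-3.19), Cd24a (-2.17) and Hes1 (-1.82). Ifng was lower in liver cKO and higher in thymus cKO. Cd24a and Hes1 were under 0.5 FPKM in every thymus library. Hes1 missed the threshold with a pseudocount of 0.1 (limma, adjusted p = 0.0607; 7.22e-05 to 0.0607 over the alternatives). Groups of 3 libraries are too small for a test of single outlying libraries.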

How the results depend on the processing

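The liver differences of Sox13, Cd163l1 and 5830411N06Rik were 2.35, 1.66 and 1.29 on the log2(FPKM + 1) scale, not relative to the median gene. The genes were chosen for this direction, and their liver groups did not overlap. Leaving out a library or changing the pseudocount could therefore not turn it round. Median-ratio scaling and quantile normalization kept the direction too, and nothing is read from that. Only the size of the differences is followed here. A pseudocount of 0.1 made them 3.24, 2.04 and 1.73, as it understates low genes less. Leaving out 1 library gave 2.23 to 2.44 for Sox13, 1.51 to 1.77 for Cd163l1 and 1.18 to 1.40 for 5830411N06Rik. In the thymus, leaving out 1 library gave -0.35 to -0.01 for Sox13 (-0.18 as described, -0.36 with a pseudocount of 0.1), -0.21 to 0.16 for Cd163l1 and 0.14 to 0.38 for 5830411N06Rik. Median-ratio scaling gave 0.14 for Cd163l1 (-0.02 as described) and 0.41 for 5830411N06Rik (0.24 as described), and quantile normalization 0.15 and 0.41. Depth is unknown, so counting error could not be set beside low values such as those of Sox13 in the thymus.

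The count of genes called in the thymus (1429) fell to 801 without the filter (200 higher, 601 lower), 812 with median-ratio scaling (453 and 359) and 825 with quantile normalization (397 and 428). It was 2408 without cKO replicate 1 and 472 to 645 without any other library. The liver count (2607) ranged from 1539 to 2640, at 1539 without YFP+ replicate 2, 1623 without cKO replicate 1 and 1644 without cKO replicate 2. The count for the difference between tissues (1466) ranged from 983 to 1700. Median-ratio scaling gave 2073 liver calls (1037 higher, 1036 lower) and quantile normalization 1225 higher and 921 lower. The cause was not tested. For the genes named from the lists, 1001 values kept their direction and side of the threshold, 47 lost and 6 gained the call, 20 that were not called changed sign, and 0 called values changed sign.

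No pairing of libraries by the replicate numbers in the titles was seen. Deviations of same-numbered libraries correlated at 0.07, 0.02 and -0.06 in the liver and at -0.00, 0.01 and -0.05 in the thymus. Low values such as these cannot show that the libraries were not made in pairs. With the replicate block the thymus count was 787 (173 higher, 614 lower), the liver count 2214 and the count for the difference between tissues 1058.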
